A study of Homo sapiens with 4 samples.

Results

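The genes examined were the receptors EGFR, ERBB2 and ERBB3, their ligands AREG, EREG, HBEGF, TGFA and BTC, the feedback inhibitor ERRFI1 and the related receptor MET, in head and neck cancer lines given miR-489 or miR-504. They were taken by name: every non-control spot whose gene name in the array design is 1 of these 10 was used. This gave 19 probes on 46 spots, of 41000 probes on 43376 spots carrying 30982 gene names in all. The control signal was well above background on all 4 arrays for 13 of the 19 probes, which represent 9 of the 10 genes. BTC had no such probe. The groups were FaDu cells transfected with miR-489, FaDu cells with miR-504, HSC3 cells with miR-489 and HSC3 cells with miR-504, each read at 72 h against control-miRNA transfectants of its own line. Each group was 1 Agilent oligo-microarray, on which the miRNA transfectant was labelled with Cy5 and the control transfectant with Cy3. FaDu is an established line from a squamous cell carcinoma of the hypopharynx, and HSC3 is an established line from a squamous cell carcinoma of the tongue. The study used such arrays to look for genes whose RNA falls when miR-489 is supplied.

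EGFR, ERBB2 and ERBB3 are members of 1 family of receptor tyrosine kinases, which pair up after a ligand binds and pass the signal to RAS and MAPK, PI3K and STAT proteins. The ligands are made as membrane-anchored precursors that are shed by proteases of the ADAM family. ERRFI1, also called MIG6, is induced by this signalling, binds the kinase domain and blocks it, and so closes a feedback loop. MET is the receptor for hepatocyte growth factor. EGFR is abundant in many squamous carcinomas of the head and neck. A miRNA lowers the mRNA of genes that pair with its seed, bases 2 to 8 of the mature strand.

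The mature strands are shown because the seed is the part by which the transfected miRNAs differ in target choice, with the seed in capitals and the rest in lower case, 5′ to 3′, from RefSeq (GRCh38.p14). The labels do not say which arm of the hairpin was transfected, so every arm held in the reference table is given. hsa-miR-489-3p lies on the minus strand of chromosome 7 at chr7:93483947-93483968. hsa-miR-504-5p lies at chrX:138667760-138667781 and hsa-miR-504-3p at chrX:138667724-138667744, both on the minus strand. The 3 seeds are 3 different sequences.
hsa-miR-489-3p: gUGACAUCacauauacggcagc
hsa-miR-504-5p: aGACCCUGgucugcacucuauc
hsa-miR-504-3p: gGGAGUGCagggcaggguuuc

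ERRFI1 was the member that changed most. Its mRNA was about 23% of the control level with miR-489 in both lines, and 53.8% and 63.7% with miR-504, and it was the 1 member whose response to the miRNAs differed past the threshold. That difference includes the FaDu miR-489 array from which the study had listed ERRFI1, so it is not independent evidence. ERBB3 rose with miR-504 on its bright probe, a single spot, but its difference between the miRNAs missed the threshold. On the FaDu miR-504 array another readable ERBB3 probe was at −0.07. EGFR did not pass with either miRNA as reported, with log2 ratios of −0.18 to −0.07, but was called lower under some other processing. The ligands HBEGF, AREG and TGFA were all several-fold lower in FaDu control cells than in HSC3 control cells, whereas each lay within 1.5-fold of its control on every array. The ligands EREG (1.86-fold on its second probe) and BTC (3.46-fold, against an HSC3 signal not well above background) were higher in FaDu control cells.

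Each value is a log2 ratio of Cy5 over Cy3, background-subtracted medians, with the median of all spots well above background set to 0 on each array. Values below 0 therefore mean a lower RNA level after the miRNA. Control signals were well above background for 58.2% to 59.2% of spots and no array had a saturated spot (0). Over 191 probes spotted at least 5 times, the SD of the log2 ratio between spots of an array was 0.07 to 0.09, which covers technical error within an array only. The 4 arrays shared 1 slide and 1 scan without a dye swap, so a constant dye response of a probe and a change shared by both miRNAs cannot be told apart. It cancels in the difference between the miRNAs. With 1 array per condition, the 2 lines served as the replicates of a miRNA, and limma with Benjamini-Hochberg adjustment was fitted to the 20914 probes with control signal well above background on every array. Whether the control RNAs of a line came from separate cultures is not stated, so p-values measure the spread between arrays, which may be technical. If the arrays of a line share a control RNA, the results for miR-489 and miR-504 are not independent. Of the squamous epithelial markers, 6 of 6 matched genes (CDH1, DSG3, KRT5, KRT14, KRT17 and SFN) were well above background on all arrays. Of 5 leukocyte, endothelial, fibroblast and T cell markers, 4 were above background on no array and COL1A1 was so on 2.

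**Figure D1:**
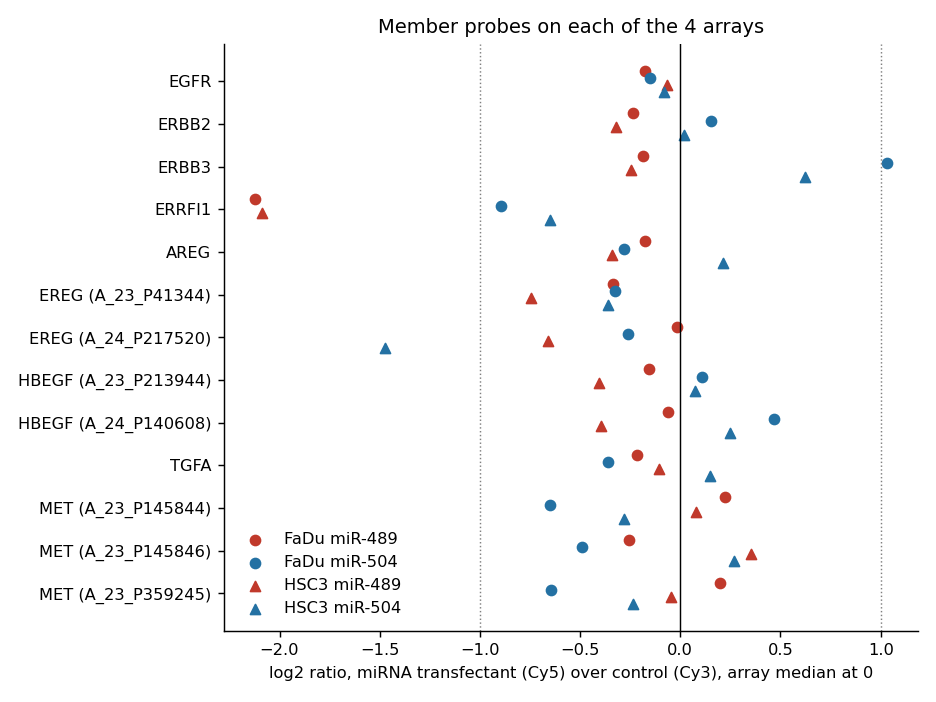
Log2 ratio of the miRNA transfectant over its control (x axis, array median at 0) for each of the 13 probes tested (y axis); each point is 1 array, circles are FaDu, triangles are HSC3, red is miR-489, blue is miR-504, and dotted lines mark 2-fold. ERRFI1 lies at −2.12 and −2.09 with miR-489, and ERBB3 is the 1 gene with a point past 2-fold on the right.

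ERRFI1 is measured by 2 probes to the same transcript (NM_018948, chromosome 1, minus strand). The bright one (A_23_P46470) was read at 1277 in Cy3 and 439.5 in Cy5 in FaDu with miR-489, a log2 ratio of −2.12. In HSC3 with miR-489 it was read at 4104 and 1447, a log2 ratio of −2.09. With miR-504 the log2 ratio was −0.89 in FaDu and −0.65 in HSC3. Both miR-489 values thus lay below both miR-504 values, with no overlap, and the lines differed by less than the miRNAs. In per cent of control, ERRFI1 was at 23.0% and 23.5% with miR-489 in FaDu and HSC3, and at 53.8% and 63.7% with miR-504.

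Over both lines ERRFI1 fell with miR-489, with a mean log2 ratio of −2.10 (SE 0.09, limma adjusted p = 0.000884), the 39th lowest of 20914 probes. It also fell with miR-504, with a mean of −0.77 (SE 0.09, limma adjusted p = 0.00317). The study listed ERRFI1 from the FaDu miR-489 array, so its value there is a description and not independent evidence. The same holds for the miR-489 fit and for the difference between the miRNAs, which both include that array. The study describes that list as drawn from FaDu cells with miR-489 alone. The difference between the miRNAs was −1.33 (SE 0.13, 95% interval −1.664 to −1.002, limma adjusted p = 0.0345). ERRFI1 was the 1 member probe of 13 past the threshold for this difference, 7.69% against 1.07% of all probes (0.760% lower and 0.306% higher). With any 1 of the 4 arrays left out the estimate ran from −1.45 to −1.21 and did not pass (limma adjusted p from 0.0904 to 0.258), as for every other probe. At an unadjusted p under 0.05, 7 of 13 member probes differed between the miRNAs, against 18.5% of all probes.

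The dim ERRFI1 probe (A_24_P11384) lies 1259 bases upstream of the bright one on the gene's strand, as the files place them. Its control signals were 19.5 to 62.5, against 1277 to 8146 for the bright probe. Both channels were well above background on the miR-504 arrays only, where its log2 ratios were −0.73 in FaDu and −0.35 in HSC3. On the HSC3 miR-489 array its Cy5 signal of 20 was not well above background. The fall there was 1.85-fold by the bound described below, which is not a strict minimum. On the FaDu miR-489 array neither channel was above background. Where it could be read, this probe pointed the same way as the bright one.

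The control level of ERRFI1 was not the same on the paired arrays of a line. Centred on the array median, the log2 Cy3 level in FaDu was 1.90 on the miR-489 array and 2.97 on the miR-504 array, a 2.11-fold gap that only 0.516% of probes matched or exceeded. In HSC3 it was 3.50 on the miR-489 array and 4.23 on the miR-504 array, a 1.66-fold gap that 4.24% of probes matched. In both lines the miR-489 array had the lower control level. Its part in the result was not tested. With the Cy5 channel alone, the difference between miR-489 and miR-504 was −2.30 in FaDu and −2.22 in HSC3 on the log2 scale, a mean of −2.26 with a limma adjusted p of 0.0539, in a comparison chosen after these control values were seen.

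**Figure D2:**
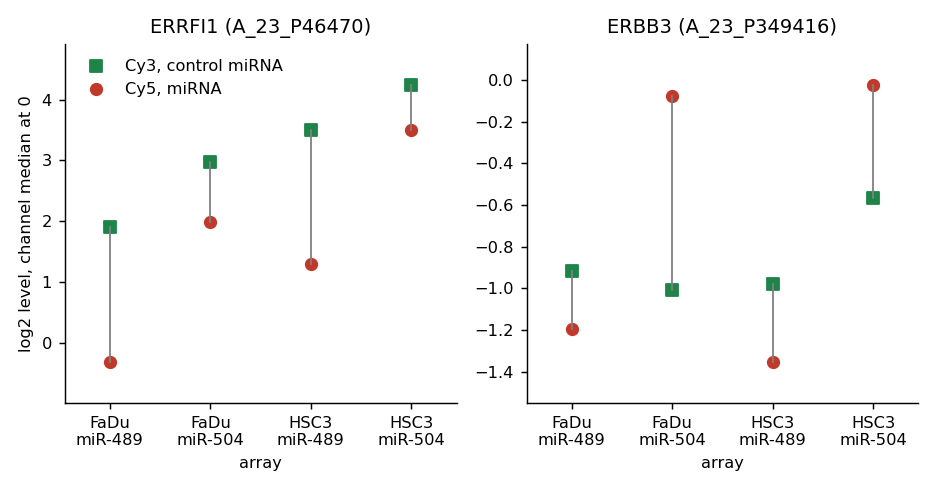
Log2 level of ERRFI1 (left) and ERBB3 (right) in each channel (y axis, channel median at 0, separate scales) on the 4 arrays (x axis); green squares are the Cy3 control transfectant, red circles the Cy5 miRNA transfectant, and the grey line joins the channels of 1 array. For ERRFI1 the Cy5 point is below the Cy3 point on all 4 arrays, and for ERBB3 it is above on the 2 miR-504 arrays only.

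Among the receptors, ERBB3 was the one that rose, and it did so with miR-504. ERBB3 lacks an active kinase of its own and signals through a partner receptor, often ERBB2. Its bright probe (A_23_P349416, NM_001982, chromosome 12) gave log2 ratios of 1.03 in FaDu and 0.62 in HSC3 with miR-504, which is 204% and 154% of control. With miR-489 the values were −0.18 in FaDu and −0.25 in HSC3. Both miR-504 values lay above both miR-489 values. ERBB3 rose with miR-504 by 0.83 (SE 0.12, limma adjusted p = 0.00477), whereas the miR-489 value of −0.22 did not pass (limma adjusted p = 0.171). The difference between the miRNAs was −1.04 (SE 0.17, 95% interval −1.46 to −0.62) and missed the threshold (limma adjusted p = 0.0666). With the cell line as a block, which pairs the arrays of a line, it passed (limma adjusted p = 0.0336). It passed in 4 of 15 alternatives in all, with adjusted p from 0.0214 to 0.468.

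That ERBB3 probe was a single spot with control signals of 168 to 292. The remaining ERBB3 probes were designed to other sequence records (U88357 and U88360) and map 13447 and 8530 bases upstream of it. Whether they read the same transcripts as the bright probe was not tested. The U88360 probe was not well above background in either channel on any array. The U88357 probe (A_24_P918970) could be read in both channels on the FaDu miR-504 array, at −0.07, and on the HSC3 miR-489 array, at −0.93. On the FaDu miR-504 array the readable probes of ERBB3 therefore disagreed, 1.03 against −0.07.

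EGFR was spotted 10 times on each array. Its log2 ratios were −0.18 (spot SD 0.05) with miR-489 and −0.15 (spot SD 0.07) with miR-504 in FaDu, and −0.07 and −0.08 in HSC3. All 4 values were below 0 and within 0.2 of it. Neither the miR-489 value of −0.12 (SE 0.08, limma adjusted p = 0.240) nor the miR-504 value of −0.12 (SE 0.08, limma adjusted p = 0.273) passed. The difference between the miRNAs was −0.01, with a 95% interval of −0.29 to 0.28. The EGFR call depended on the processing. With miR-489 it was lower with loess (−0.25, limma adjusted p = 0.0391), with normexp and loess (−0.26, limma adjusted p = 0.0158) and with total-signal scaling (−0.31, limma adjusted p = 0.0247), but 0.01 without background subtraction (limma adjusted p = 0.936). With miR-504 it passed with normexp and loess (−0.22, limma adjusted p = 0.0303) and with total-signal scaling (−0.30, limma adjusted p = 0.0328).

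ERBB2, the partner receptor with no known ligand of its own, is read by 1 bright probe (A_23_P89249) with 10 spots an array. Its log2 ratios with miR-489 were −0.23 in FaDu and −0.32 in HSC3, and with miR-504 they were 0.15 and 0.02. The miR-489 values lay below the miR-504 values in both lines. ERBB2 fell with miR-489, to a mean log2 ratio of −0.28 (SE 0.08, limma adjusted p = 0.0362), and the miR-504 value was 0.09 (limma adjusted p = 0.422). The fall passed in 8 of 14 alternatives, and its adjusted p rose to 0.171 without the HSC3 miR-489 array. The difference between the miRNAs was −0.36, with a 95% interval of −0.66 to −0.07 and a limma adjusted p of 0.206. The remaining ERBB2 probe, 18179 bases upstream, was not well above background on any array.

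Relative to its control, MET fell with miR-504 on its bright probe and a second one. Its bright probe (A_23_P359245, 10 spots an array) gave log2 ratios of −0.64 in FaDu and −0.24 in HSC3 with miR-504, and 0.20 and −0.05 with miR-489. A second MET probe (A_23_P145844), 2096 bases upstream, gave −0.65 and −0.28 with miR-504 and 0.22 and 0.08 with miR-489. On both probes the miR-504 values lay below the miR-489 values in each line. The mean with miR-504 was −0.44 (SE 0.13, limma adjusted p = 0.0382) on the bright probe and −0.47 (SE 0.11, limma adjusted p = 0.0232) on the second, and each passed in 10 of 14 alternatives. Without the FaDu miR-504 array the MET values were −0.24 on the bright probe and −0.28 on the second, and neither passed (limma adjusted p = 0.313 and 0.208). The differences between the miRNAs, 0.51 (95% interval 0.05 to 0.97) and 0.62 (95% interval 0.20 to 1.03), did not pass (limma adjusted p = 0.236 and 0.155). In FaDu the control level was lower on the miR-489 array than on the miR-504 array, by 1.33-fold on the bright probe and 1.95-fold on the second, and its part in these ratios was not tested. With the Cy5 channel alone, the log2 difference between miR-489 and miR-504 on the bright probe was 0.43 in FaDu and −0.03 in HSC3. On the second probe it was −0.08 in FaDu and 0.32 in HSC3.

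The third MET probe (A_23_P145846), 2217 bases upstream of the bright one and with control signals of 47 to 77.5, disagreed. It was lower in FaDu with both miRNAs, at −0.25 with miR-489 and −0.49 with miR-504, and higher in HSC3, at 0.35 and 0.27. Neither fit passed on it (limma adjusted p = 0.864 for miR-489 and 0.700 for miR-504).

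Of the ligands, EREG fell with miR-489 on its bright probe and HBEGF on its dimmer one. No ligand probe passed with miR-504 as reported, but probes of EREG and HBEGF did under some other processing. EREG, epiregulin, is read by a bright probe (A_23_P41344) and by a second one (A_24_P217520) that spans 1567 bases of the genome and lies 7156 bases upstream. On the bright probe the log2 ratios with miR-489 were −0.34 in FaDu and −0.75 in HSC3, and with miR-504 they were −0.33 and −0.36. All 4 values were below 0, and the miRNAs overlapped. EREG fell with miR-489 on this probe, to a mean of −0.54 (SE 0.12, limma adjusted p = 0.0134), and its miR-504 value of −0.35 missed the threshold (limma adjusted p = 0.0585). The miR-504 value passed in 5 of 10 alternatives that kept every array. Without the HSC3 miR-489 array the EREG value with miR-489 was −0.34 and no longer passed (limma adjusted p = 0.0672), nor did it with no dim filter (limma adjusted p = 0.0639).

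The second EREG probe gave −0.01 and −0.66 with miR-489 in FaDu and HSC3, and −0.26 and −1.47 with miR-504. The HSC3 miR-504 value, at 36.0% of control, was the lowest ratio of any ligand probe tested. Neither contrast passed on it (limma adjusted p = 0.390 for miR-489 and 0.0673 for miR-504). In alternatives that kept every array, it was called lower with miR-504 in 7 of 10 and with miR-489 in 0 of 10. The control level of EREG also differed between the HSC3 arrays, by 2.73-fold on the bright probe and 1.39-fold on the second, and in FaDu by 1.01-fold and 1.09-fold.

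HBEGF, a heparin-binding ligand, is read by 2 probes 2456 bases apart on NM_001945. On the bright one (A_24_P140608) the log2 ratios with miR-504 were 0.47 in FaDu and 0.25 in HSC3, and with miR-489 they were −0.06 and −0.40. The order of the miRNAs was the same on the dimmer probe (A_23_P213944), at 0.11 and 0.07 with miR-504 and −0.16 and −0.41 with miR-489. HBEGF fell with miR-489 on the dimmer probe, to a mean of −0.28 (SE 0.09, limma adjusted p = 0.0481), a call held in 7 of 14 alternatives and lost without the HSC3 miR-489 array (−0.16, limma adjusted p = 0.286), but the bright probe's value of −0.23 did not pass (limma adjusted p = 0.145). The miR-504 value of 0.36 on the bright probe missed the threshold (limma adjusted p = 0.0508) and passed in 4 of 10 alternatives that kept every array. The difference between the miRNAs on it was −0.58 (95% interval −0.998 to −0.172, limma adjusted p = 0.171).

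AREG, amphiregulin, gave log2 ratios of −0.17 with miR-489 and −0.28 with miR-504 in FaDu, and of −0.34 and 0.21 in HSC3. Its direction with miR-504 thus differed between the lines, and neither contrast passed (limma adjusted p = 0.160 and 0.845). The AREG call with miR-489 depended on the processing and was made in 4 of 14 alternatives. AREG was lower with loess (−0.49, limma adjusted p = 0.0177) and with normexp and loess (−0.54, limma adjusted p = 0.00421). It was also lower with total-signal scaling (−0.45, limma adjusted p = 0.0347) and with the deposited ratio (−0.56, limma adjusted p = 0.0129). RefSeq now lists AREGB as a synonym of AREG. TGFA, transforming growth factor alpha, gave −0.22 and −0.36 in FaDu and −0.11 and 0.15 in HSC3, in the same order, and did not pass either (limma adjusted p = 0.350 and 0.538). The intervals of the difference between the miRNAs were −0.71 to 0.27 for AREG and −0.54 to 0.43 for TGFA.

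**Figure D3:**
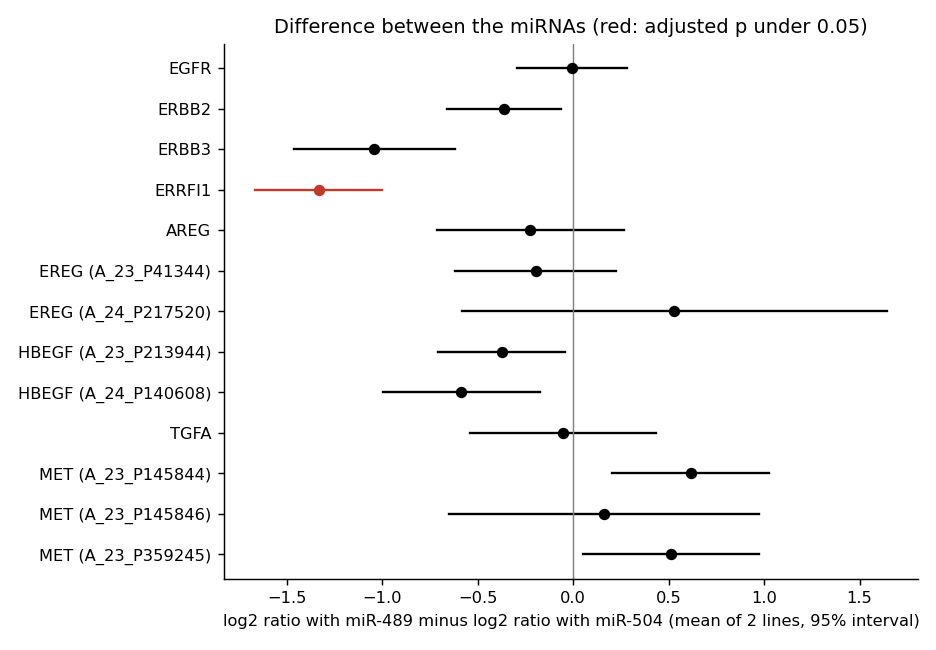
Log2 ratio with miR-489 minus log2 ratio with miR-504 (x axis, mean over the 2 lines) for the 13 probes tested (y axis); lines are 95% intervals from limma without adjustment for the number of probes, and red marks an adjusted p under 0.05. ERRFI1 alone is red at −1.33, followed by ERBB3 at −1.04, and the 3 MET probes and 1 EREG probe lie above 0.

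As reported, a smaller share of member probes than of all probes was called in the contrasts with control, an order that did not hold under every processing. With miR-489, 4 of 13 member probes fell (ERRFI1, ERBB2, EREG and HBEGF) and 0 rose, 30.8% called against 57.1% of all probes. By direction, 26.5% of all probes were called lower and 30.5% higher. With miR-504, 3 fell (ERRFI1 and 2 of MET) and 1 rose (ERBB3), again 30.8%, against 49.6% of all probes (23.4% lower and 26.2% higher). The median of the 13 member values was −0.23 with miR-489 and −0.11 with miR-504, where the medians of all probes were 0.03 and 0.02. With total-signal scaling the member share was not smaller. It called 8 of 13 member probes and 11927 of 20914 probes with miR-489, and 7 of 13 and 10679 of 20914 with miR-504. Nor was it smaller for miR-504 with the line as a block, at 7 of 13 and 11073 of 20914. On single arrays, ERRFI1 was the 1 member probe at least 2-fold lower on the FaDu miR-489 array, of 14 that could be read, where 8.00% of all probes were. On the HSC3 miR-489 array the same limit was passed by 2 of 15, the ERRFI1 probes, where 7.63% of all probes passed it. The dim ERRFI1 probe is counted there by its measured log2 ratio of −1.75, although its Cy5 signal was not well above background. By the bound its fall was 1.85-fold, and the count was 1 with normexp, with loess and with both. The member counts were 0 of 16 on the FaDu miR-504 array (5.51% of all probes) and 1 of 14, the second EREG probe, on the HSC3 miR-504 array (4.66%). ERBB3 was the 1 member at least 2-fold higher on any array, 1 of 16 on the FaDu miR-504 array, where 2.32% of all probes were. The counts of members at least 2-fold higher were 0 of 14 with miR-489 in FaDu (2.91% of all probes), 0 of 14 with miR-489 in HSC3 (2.77%) and 0 of 15 with miR-504 in HSC3 (1.90%).

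For the response of FaDu against that of HSC3, limma called 0 of 13 member probes and 0 of all probes (0%). At an unadjusted p under 0.05 there were 2 member probes, against 7.58% of all probes. They were the second EREG probe, 0.93 higher in FaDu (SE 0.17, limma adjusted p = 0.360), and the third MET probe, 0.68 lower in FaDu (−0.68, SE 0.13, limma adjusted p = 0.370). For ERRFI1 the difference between the lines was −0.14 (SE 0.13, limma adjusted p = 0.907).

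The Cy3 channel gives the control transfectants alone, 2 arrays per line, and here 9 of 13 member probes differed, where 48.5% of all probes did. The following values are log2 levels with the array median at 0 and are compared only between lines within a probe. HBEGF on its bright probe was at −0.95 and −0.32 in FaDu and at 2.67 and 2.70 in HSC3, a lower level in FaDu (log2 difference −3.32, SE 0.22, limma adjusted p = 0.000114). The dimmer HBEGF probe gave a 7.80-fold lower level (−2.96, SE 0.16, limma adjusted p = 6.68e-05). The lines did not overlap on either probe.

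AREG was at 4.29 and 4.62 in FaDu and at 7.38 and 6.58 in HSC3, 5.77-fold lower in FaDu (−2.53, SE 0.27, limma adjusted p = 0.000526). TGFA was at −2.01 and −1.19 in FaDu and at −0.03 and 0.29 in HSC3, 3.32-fold lower in FaDu (−1.73, SE 0.28, limma adjusted p = 0.0024). EREG ran the opposite way: on its second probe it was at 0.06 and −0.06 in FaDu and −0.66 and −1.14 in HSC3, 1.86-fold higher in FaDu (0.90, SE 0.20, limma adjusted p = 0.00835). The bright EREG probe gave 2.79 and 2.77 in FaDu and 2.36 and 0.91 in HSC3, with a difference of 1.14 that missed the threshold (limma adjusted p = 0.0561). BTC, betacellulin, was well above background in FaDu only, with Cy3 signals of 67.5 and 55 against 33 and 11.5 in HSC3. By the bound described below it was 3.46-fold higher in FaDu, against an HSC3 signal that was not well above background. A Cy3 signal of 40 (ERBB2, HSC3 miR-489 array) was also not well above background, so the BTC value is not a strict minimum. The second BTC probe was not above background on any array. AREG, EREG and BTC all lie on chromosome 4, and AREG did not share the direction of the other two.

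Of the receptors, EGFR was at 1.19 and 1.09 in FaDu and at 2.73 and 2.71 in HSC3, 2.98-fold lower in FaDu (−1.58, SE 0.15, limma adjusted p = 0.000312). The gap between the lines was far larger than the spread between the arrays of a line. ERBB2 was slightly higher in FaDu, by 0.47 (SE 0.16, limma adjusted p = 0.0443), a call that held in 4 of 10 alternatives, with adjusted p from 0.0290 to 0.192. ERBB3 did not pass (−0.19, limma adjusted p = 0.427). MET on its bright probe was 1.58-fold lower in FaDu (−0.66, SE 0.19, limma adjusted p = 0.0241), and its dimmer probes gave −0.64 and −0.35 without passing (limma adjusted p = 0.113 and 0.0973).

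ERRFI1 was 2.70-fold lower in FaDu control cells than in HSC3 control cells (−1.43, SE 0.38, limma adjusted p = 0.0178). Without the FaDu miR-489 array the difference was −0.89 and no longer passed (limma adjusted p = 0.0634), and without the HSC3 miR-504 array it was −1.07 (limma adjusted p = 0.0618). In all, 9 of 13 member probes passed between the lines, 7 lower and 2 higher in FaDu. That is 69.2%, where 20.4% of all probes were lower and 28.2% higher. The median difference over the members was −0.66, and over all probes it was 0.08. The 7 lower probes were those of EGFR, ERRFI1, AREG, HBEGF (2), TGFA and MET.

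**Figure D4:**
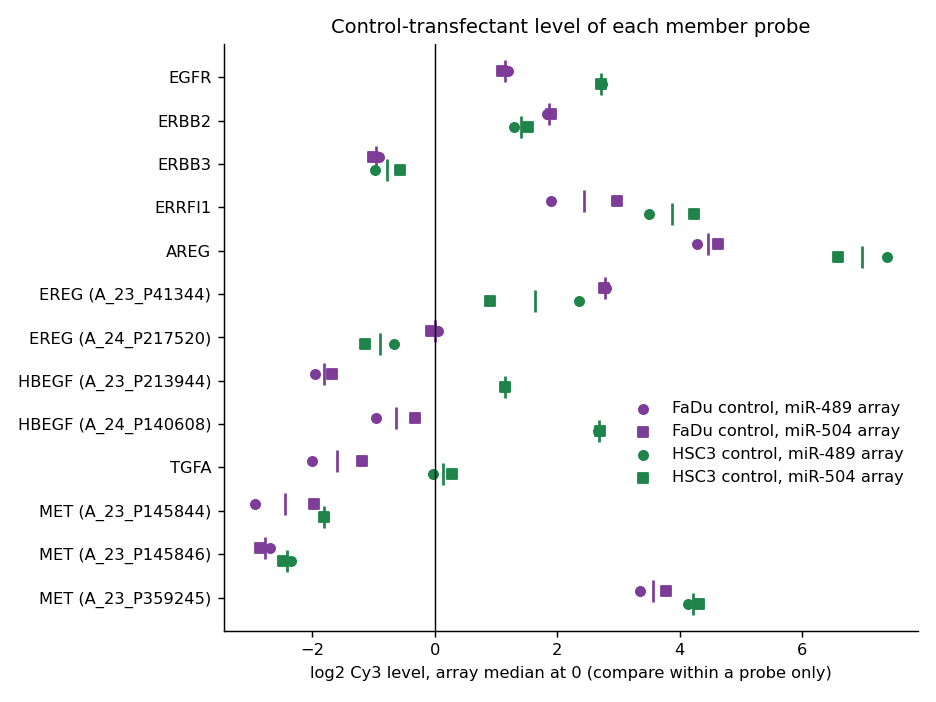
Log2 Cy3 level of the control transfectants (x axis, array median at 0) for the 13 probes tested (y axis); purple is FaDu, green is HSC3, circles and squares are the miR-489 and miR-504 arrays, and bars are the mean of the 2 arrays. Levels can be compared within a probe only; HBEGF, AREG, TGFA and EGFR lie to the left in FaDu, and EREG lies to the right.

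The control levels also show how far the arrays of a line agreed for each member. The median gap over all probes was 0.15 on the log2 scale in FaDu and 0.19 in HSC3. After ERRFI1, the FaDu gaps were largest for MET on its second probe (1.95-fold), TGFA (1.77-fold) and HBEGF on its bright probe (1.55-fold). In HSC3 they were largest for EREG on its bright probe (2.73-fold) and AREG (1.74-fold). The direction of the gap was shared by the lines for 9 of 13 member probes, lower on the miR-489 array for 5 and higher for 4. These gaps belong to the channel on which each ratio rests, and their part in the ratios was not tested.

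The rest of the pathway was read from 4 lists of genes. In the first, other receptors and ligands, 5 probes of 3 genes were tested. NRG1, a neuregulin that binds ERBB3, carried 3 of them and rose with miR-489 on all 3, by 0.79 (limma adjusted p = 0.0123), 0.89 (limma adjusted p = 0.00566) and 0.77 (limma adjusted p = 0.0170). With miR-504 its values were −0.25, −0.03 and 0.37, and none passed. The difference between the miRNAs was 1.04, 0.92 and 0.40 and did not pass (limma adjusted p = 0.121, 0.120 and 0.470). No probe of this list fell with either miRNA (0); over all probes 30.5% rose and 26.5% fell with miR-489.

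Among the genes of ligand shedding, 12 probes of 9 genes were tested. With miR-489, 1 fell and 5 rose, and with miR-504 again 1 fell and 5 rose, where 57.1% and 49.6% of all probes were called. Between the control transfectants 7 were lower and 2 higher in FaDu, where 20.4% of all probes were lower and 28.2% higher. ADAM12, a membrane protease, rose with miR-489 by 1.51 (SE 0.34, limma adjusted p = 0.0153), with values of 1.12 in FaDu and 1.89 in HSC3, and its miR-504 value of 0.73 did not pass (limma adjusted p = 0.130). ADAM15 gave 0.37 with miR-489 (limma adjusted p = 0.0748). RHBDL2, a rhomboid protease, gave −0.54 on A_32_P46571 (limma adjusted p = 0.0976), with −1.02 in FaDu and −0.06 in HSC3. Its other tested probes gave 0.11 and 0.01 with miR-489 (limma adjusted p = 0.600 and 0.965).

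Of the genes of receptor turnover and negative regulation, 29 probes of 20 genes were tested. With miR-489, 4 fell and 9 rose, where 26.5% of all probes fell and 30.5% rose. With miR-504, 5 fell and 9 rose, where 23.4% of all probes fell and 26.2% rose. CBL, the ubiquitin ligase that marks activated EGFR for degradation, rose with miR-489 in both lines, at 0.85 in FaDu and 0.77 in HSC3 (mean 0.81, SE 0.08, limma adjusted p = 0.00161). With miR-504 CBL was at −0.04 and 0.07. The difference of 0.79 between the miRNAs missed the threshold (limma adjusted p = 0.0569). LRIG1, a transmembrane protein that lowers receptor levels, fell with miR-504, to a mean of −0.79 (SE 0.16, limma adjusted p = 0.0125), and its miR-489 value was −0.09. In control cells LRIG1 was lower in FaDu, with a log2 difference of −3.15 (SE 0.19, limma adjusted p = 8.68e-05). SOCS4 passed with neither miRNA, at 0.34 with miR-489 and −0.43 with miR-504.

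Of the adaptors and transducers, 30 probes of 19 genes were tested. With miR-489, 8 fell and 11 rose, and with miR-504, 5 fell and 8 rose, where 57.1% and 49.6% of all probes were called in either direction. For the difference between the miRNAs 2 probes of this list passed, both lower with miR-489 and both of PTPN11, and no probe of the other 3 lists did (0). PTPN11 encodes the phosphatase SHP2, which carries the signal from receptors to RAS, and is the gene the study followed up from these arrays. The study listed it from the FaDu miR-489 array, so its miR-489 values and differences are not independent evidence either. On A_32_P61757 its log2 ratios were −3.25 in FaDu and −3.22 in HSC3 with miR-489 and −1.29 and −1.04 with miR-504, a difference of −2.07 (SE 0.13, limma adjusted p = 0.0305). On A_23_P99027 they were −1.07 and −1.38 with miR-489 and 0.35 and 0.29 with miR-504, a difference of −1.54 (SE 0.14, limma adjusted p = 0.0345). PTPN11 has 2 more tested probes, which fell with both miRNAs: A_23_P105436 had means of −2.23 with miR-489 and −1.22 with miR-504 (limma adjusted p = 0.00239 and 0.0164), and A_23_P204090 had means of −1.52 and −1.23 (limma adjusted p = 0.00209 and 0.00462). The Cy5 signal of A_23_P105436 was not well above background on every array. Of the 4 PTPN11 probes tested, 3 thus fell with both miRNAs, as ERRFI1 did, and A_23_P99027 did not pass with miR-504 (0.32, limma adjusted p = 0.0503). On these 2 probes the miRNAs did not differ past the threshold (limma adjusted p = 0.253 and 0.583). STAT3 on A_24_P116805 rose with both miRNAs, by 1.75 with miR-489 and 1.15 with miR-504 (limma adjusted p = 0.000944 and 0.00246). Its other tested probes also rose with both. A_23_P107206 gave 1.85 and 1.26 (limma adjusted p = 0.000884 and 0.00150), and A_23_P100795 gave 2.19 and 1.75 (limma adjusted p = 0.000884 and 0.00134).

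The genes whose 4 log2 ratios were nearest to those of ERRFI1 were found by Euclidean distance over the 4 arrays, among the brightest probes of 15618 genes. By the names of the array design they were C14orf147 (distance 0.29), AI922845 (0.30), AK095472 (0.39), ZCCHC4 (0.39) and MESDC2 (0.44). The study had listed C14orf147 and ZCCHC4, like ERRFI1, from the FaDu miR-489 array, so their nearness is not independent evidence. C14orf147, now named SPTSSA, gave −2.28 and −2.07 with miR-489 in FaDu and HSC3 and −0.72 and −0.81 with miR-504. MESDC2, now MESD, gave −1.81 and −1.91, and −0.80 and −0.89. No member and no gene of the 4 lists was among the 5.

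**Figure D5:**
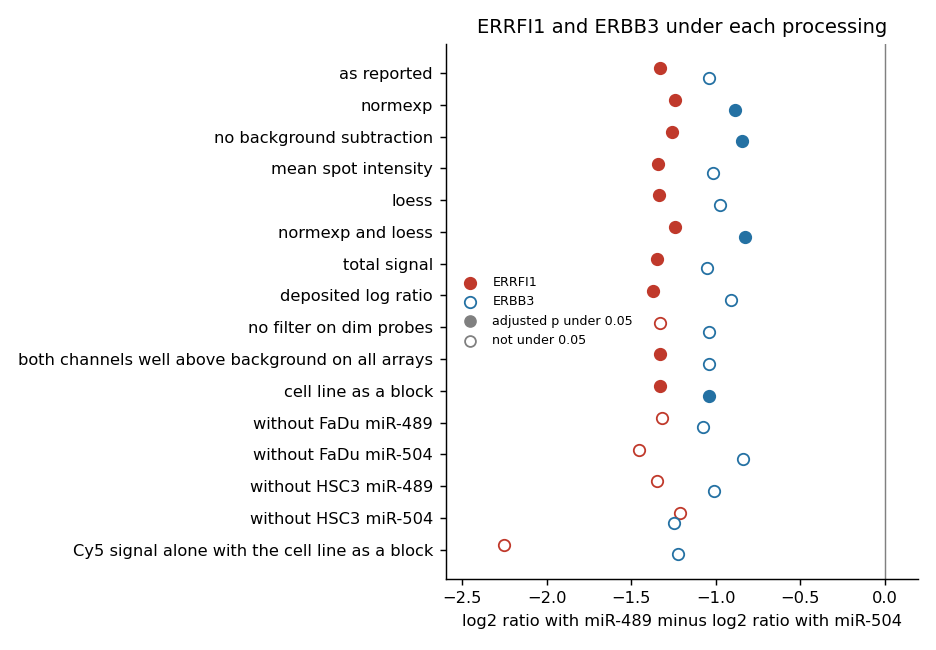
Log2 ratio with miR-489 minus log2 ratio with miR-504 (x axis) for ERRFI1 (red) and ERBB3 (blue) as reported and under each alternative processing (y axis); filled points have an adjusted p under 0.05. All points lie left of 0; ERRFI1 is filled as reported and in 9 of 15 alternatives, and ERBB3 in 4 of 15.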

How the data were processed

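RNA of miR-489 or miR-504 transfectants (Cy5) and of control-miRNA transfectants (Cy3) of FaDu or HSC3 had been hybridised to 4 arrays; dye, line and miRNA came from the labels. The authors deposited scanner output of Feature Extraction 9.5.3.1: for every spot, signal and local background intensity as median and mean, without normalisation, and marks for outliers, saturation and signal well above background. The deposited log10 ratio had been dye-normalised by that software, and a deposited table of values was identical to it (largest difference 0). DNASIS software and a ScanArray scanner are what the study's methods give, with background-subtracted medians, log2 ratios and global normalisation. Those steps were followed from the deposited intensities: 118 to 137 outlier spots per array were left out, and medians of 0.45 to 0.65 were subtracted. Replicate spots were averaged per probe.

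limma 3.58.1 (R 4.3.3, with data.table, version 1.17.8) was fitted with 1 mean per miRNA (2 residual and 3.20 prior degrees of freedom), with miRNA and line (1 residual) and, for Cy3, with line (2 residual), each tested on simulated data. Calls used an adjusted p under 0.05, and single arrays a 2-fold threshold. Intervals are 95%. The number of arrays limits the precision. A bound sets the bright mean against the dim probe's own signal or, where higher, the least signal among probes well above background. Some probes with higher signals were not well above background, so a bound is not a strict minimum. Bounds used channels after loess within arrays and quantile scaling of the average intensity between arrays. They are therefore not on the same scale as the median-centred ratios and levels.

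The members and lists were chosen with earlier results of these data known. Every member probe is named; of the lists, the genes past the threshold between the miRNAs or up to 3 per list with the largest difference, and PTPN11. Genes carry the names in the array design, and because the files name no genome build only distances between probes are given. Of the squamous markers, KRT6A and TP63 matched no gene name. Transcript sequences were not used here, so seed matches were not searched. Alternatives were normexp (offset 50), no background subtraction, mean intensity, loess (span 0.3), normexp with loess, total signal, the deposited ratio, other dim filters and Cy3 scalings, line as a block, 1.5-fold, the mean of a gene's probes, and each array left out. Figures used Python 3.11.15, pandas 2.3.3 and matplotlib 3.10.9.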

Additional observations from a re-analysis of the deposited data

Results flagged for a closer look

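Ratios that ran in opposite directions in the lines, each by more than 2 spot SDs, were singled out among the members with the same miRNA. The differences between the lines were not tested on single arrays, because each line and miRNA has 1 array. AREG with miR-504 was −0.28 in FaDu and 0.21 in HSC3, a difference of −0.495 on the log2 scale; the HSC3 value changed sign in 3 of 8 alternatives. The dim MET probe A_23_P145846 was −0.25 in FaDu and 0.35 in HSC3 with miR-489, a difference of −0.61, and −0.49 and 0.27 with miR-504, a difference of −0.76. No other MET probe passed that rule. Over both miRNAs, limma gave a difference between the lines of −0.16 for AREG (adjusted p = 0.927) and −0.68 for this MET probe (adjusted p = 0.370).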

How the results depend on the processing

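ERRFI1 fell with miR-489 and with miR-504 past the threshold in 14 of 14 alternatives each (−2.30 to −1.89 and −0.95 to −0.63). ERBB3 rose with miR-504 in 14 of 14. EGFR, AREG, HBEGF and TGFA levels between the lines passed in 10 of 10. No called value changed sign (0).
Member probes past the threshold against control numbered 8 with total-signal scaling for miR-489 (1 to 3 without 1 array) and, for miR-504, 7 with total-signal scaling, 7 with the line as a block and 2 with no dim filter (3 to 6 without 1 array). Leaving out 1 array left 8529 to 10471 probes called for miR-489 and 3469 to 10917 for miR-504; FaDu miR-504 (3469) and HSC3 miR-504 (4169) mattered most. Total-signal scaling moved the median of all probes from 0.03 to −0.16 (miR-489) and from 0.02 to −0.16 (miR-504), and the share of calls that were higher from 53.5% to 32.5% and from 52.9% to 29.5%; with no dim filter it was 34.0% and 32.0%.
Between the miRNAs 2 member probes, those of ERRFI1 and ERBB3, passed with normexp, no background subtraction, normexp with loess and the line as a block. None (0) passed with no dim filter, without any 1 array (0 to 0) or with Cy5 alone (0), where 3138, 2064 to 3704 and 4130 probes had an unadjusted p under 0.05. All probes called were 223 as reported, 663 with normexp, 498 with no background subtraction, 347 with loess, 782 with normexp and loess, 390 with the deposited ratio, 558 with the block and 0 with no dim filter, without any 1 array or with Cy5 alone. The share higher ran from 28.7% as reported to 42.8% with normexp. For the response of FaDu against HSC3, 2 member probes (EREG, MET) and 367 of all probes passed with no background subtraction, and 13 of all probes with normexp; leaving out 1 array leaves no residual degrees of freedom there.
For the Cy3 levels of ERRFI1 and MET, leaving out the FaDu miR-489 or the HSC3 miR-504 array ended the call (8 of 10 alternatives passed for each), and member calls ran from 6 to 9 without 1 array and all calls from 7064 to 9941.
Of members at least 2-fold lower, the count of 1 on FaDu miR-489 became 2 with total signal and 2 at 1.5-fold, that of 0 on FaDu miR-504 became 1 with total signal and 4 at 1.5-fold, that of 2 on HSC3 miR-489 became 1 with normexp, loess or both and 5 at 1.5-fold, and that of 1 on HSC3 miR-504 became 0 with normexp and loess and 2 at 1.5-fold. The 1 rise on FaDu miR-504, ERBB3, became 0 with normexp, no background subtraction, loess, both, total signal or the deposited ratio, and 0 rises on HSC3 miR-504 became 1 at 1.5-fold. The cause was not tested.
The labels give no replicate numbers, so the arrays were paired by cell line: with the line as a block, ERBB3 (adjusted p = 0.0336) passed beside ERRFI1 (adjusted p = 0.0207) between the miRNAs.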
